A study of Mus musculus with 8 samples.

Results

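Nnt and 7 other enzymes that make or spend reducing power in mitochondria, for Gpx4 only in part, were followed in S0 cells of the fetal liver. WT libraries were set against those of embryos lacking both VPS13A and VPS13C (DKO). The 8 genes are Nnt, Idh2 and Glud1, which feed the matrix with NADPH or its substrates, and Prdx3, Txn2, Txnrd2, Sod2 and Gpx4, which remove superoxide and peroxides. They were selected by name with the measured WT and DKO levels of these same libraries already known. Their own differences between the genotypes are therefore a description, and edgeR results given for them are not read as a test. All 8 were found among the 52636 gene identifiers of the count table, and all 8 were among the 17378 genes with enough counts to be tested.

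The RNAseq set holds 4 WT and 4 DKO libraries of S0 cells from E12.5 embryos, the age at which the study examined the failure of erythroid maturation. S0 cells are the live fetal liver cells that carry neither CD71 nor Ter119 and remain after staining against CD3e, CD4, CD8a, B220, CD127, CD11b and Ly6G/Ly6C. DKO embryos lack Vps13c and carry the Vps13a tm1d allele, made by FLP and then β-actin-Cre recombination, and they came from crosses of Vps13a+/-/Vps13c-/- parents, so the WT embryos were not their littermates. Mice were kept on the C57BL/6J background. Both mutant lines were started from archived sperm (European Mutant Mouse Archive), and the substrain in which their alleles were made is not stated. Whether each library is a separate embryo is not stated, and p-values then measure the spread between these libraries.

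Mitochondria keep their own pool of NADPH, because the nucleotide does not cross the inner membrane. Nicotinamide nucleotide transhydrogenase, the product of Nnt, uses the proton gradient to move hydride from NADH to NADP, while isocitrate dehydrogenase and the folate enzymes form NADPH in parallel. NADPH then reduces thioredoxin reductase and glutathione reductase, which recharge the peroxiredoxins and glutathione peroxidases. Nnt is also known as a marker of mouse substrains, since C57BL/6J carries an allele that lacks several inner exons and makes no working protein, whereas C57BL/6N carries the intact gene.

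Library totals lay between 42114489 and 50886469 counts in WT and between 36981439 and 42587815 in DKO. The targeted gene Vps13a fell, with a log2 fold change of -1.29 and each DKO library below each WT library, whereas Vps13c (log2 fold change 0.49, edgeR adjusted p = 0.182) did not check the labels over its whole length. The Y-linked Ddx3y exceeded Xist in 4 of 4 WT libraries but in 1 of 4 DKO libraries, replicate 3, so embryo sex moved with genotype and its part in the differences was not tested. In this bulk RNA, fewer cells of a type and less RNA per cell cannot be told apart. Erythroid transcripts such as Klf1 and Gata1 were abundant in both groups. Of 10 erythroid markers, 2 were higher in DKO (Epor among them) and 0 lower. For Nfe2 each DKO library lay below each WT library (log2 fold change -0.50, edgeR adjusted p = 0.0542). RNA of other cells was present too. Summed hepatoblast markers ranged from 703219 to 954543 normalized counts in WT and from 208964 to 808476 in DKO, and 0 of 11 passed the test. Their median log2 fold change was -0.79. Each DKO library lay below each WT library in 4 of 11 (14.6% of all genes tested) and above in 0 of 11 (13.5%). Mesenchymal markers rose in 5 of 6 cases, their sum running from 1756 to 5453 in WT and from 11684 to 42736 in DKO. Granulocyte and monocyte markers fell in 5 of 6 cases, with sums of 103784 to 135105 in WT and 5360 to 45655 in DKO. No tested marker of these 3 lists was at 0 in any library. Of the other lists, 1 of 8 macrophage markers and 1 of 6 endothelial markers fell, and 0 of 5 megakaryocyte markers passed the test. Among all genes tested, 10.7% rose and 10.8% fell.

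Nnt was the member with the widest separation between genotypes. Normalized counts, which are counts rescaled to a common effective library size, were 320, 630, 620 and 956 in WT replicates 1 to 4 and 2256, 1763, 1792 and 2640 in DKO replicates 1 to 4. Each DKO library therefore lay above each WT library, and the lowest DKO value was well clear of the highest WT value. WT libraries averaged 632 ± 259 and DKO libraries 2113 ± 418 (SD, 4 libraries a group), a 3.34-fold difference or a log2 fold change of 1.74 (SE 0.29). Of all genes tested, 9.06% had a larger log2 fold change in either direction. The libraries also spread within a genotype, with a coefficient of variation of 41.1% in WT and 19.8% in DKO. DKO replicate 3, in which Ddx3y exceeded Xist as in WT, was within the DKO range at 1792. The part of embryo sex in the Nnt difference was not tested, and that library alone cannot test it.

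In the counting used here Nnt is ENSMUSG00000025453.16, which spans positions 119335448 to 119408997 of chromosome 13 (GRCm38, minus strand). The lowest deposited count in any library was 306, so that counting error was small beside the spread between libraries. The reference genome is that of C57BL/6J, and reads from exons missing in that substrain have no place in the counted gene model. The Nnt allele of each embryo was not tested, nor whether an allele was carried along with either knockout. The annotation holds 2 gene models named Nnt, and only the one above was among the rows of the count table.

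Idh2, the matrix isocitrate dehydrogenase that yields NADPH, was lower in DKO. Its normalized counts were 18050, 18060, 18702 and 18682 in WT and 13211, 14968, 12011 and 13956 in DKO. The WT libraries lay close together, with a coefficient of variation of 2.004%, and the highest DKO library was still below the lowest WT library. The log2 fold change was -0.44 (SE 0.08), which is 0.737 times the WT mean. Idh2 (ENSMUSG00000030541.16) lies on the minus strand of chromosome 7 from 80094846 to 80115392.

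Glud1, glutamate dehydrogenase, turns glutamate into 2-oxoglutarate and links amino acids to the same cycle. WT libraries had 20605, 21721, 24386 and 26672 normalized counts, and DKO libraries had 18750, 27325, 11635 and 25200. The groups overlapped, and DKO replicate 3 stood far below the other DKO libraries. The log2 fold change was -0.17 (SE 0.23), and the coefficient of variation was 34.1% in DKO and 11.7% in WT. Glud1 (ENSMUSG00000021794.15) lies on the plus strand of chromosome 14 from 34310727 to 34345265.

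Gpx4, a selenoprotein that reduces lipid hydroperoxides in membranes, was, beside Nnt, the member whose DKO libraries all lay above WT. Its normalized counts were 13556, 14021, 15979 and 13665 in WT and 17573, 19744, 23224 and 23622 in DKO. The lowest DKO library exceeded the highest WT library, and the log2 fold change was 0.56 (SE 0.11), or 1.47-fold. Gpx4 (ENSMUSG00000075706.10) spans 80047166 to 80056439 of chromosome 10 on the plus strand, and a transcribed copy, Gpx4-ps2, averaged 602 ± 81.3 in WT against 976 ± 129 in DKO. Reads shared with such copies make the Gpx4 count less certain, although the copy held far fewer counts than the gene. The count also does not separate mitochondrial from other forms of the enzyme.

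Selenoproteins are marked in the message itself, since a UGA codon is read as selenocysteine instead of stop. This was shown for the 2 members of the kind, Gpx4 and Txnrd2, by reading the coding sequence of their GENCODE transcripts around the in-frame TGA, in capitals. In Gpx4 the codon is number 73 of 197 and lies at chr10:80054737-80054739 on the plus strand of GRCm38. In Txnrd2 it is number 526 of 527, at chr16:18477772-18477774 on the plus strand, directly before the last codon, so that a ribosome stopping there would lose the reactive end of the enzyme.
Gpx4: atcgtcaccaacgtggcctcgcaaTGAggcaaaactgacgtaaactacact
Txnrd2: ctggagcctactgtgactggttgcTGAggc

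Txnrd2, the mitochondrial thioredoxin reductase, passes electrons from NADPH to thioredoxin. WT libraries had 2422, 1985, 2160 and 2082 normalized counts, and DKO libraries had 2261, 2303, 2845 and 2900. DKO replicates 3 and 4 were above all WT libraries, whereas DKO replicates 1 and 2 were within the WT range. The log2 fold change was 0.25 (SE 0.11). Txnrd2 (ENSMUSG00000075704.16, chromosome 16 from 18426384 to 18479073, plus strand) is counted from reads whose strand handling is not given in the sources used here.

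Txn2, mitochondrial thioredoxin, takes these electrons on a pair of cysteines and hands them to peroxiredoxin 3. The codons of its active site, tryptophan, cysteine, glycine, proline and cysteine, begin at codon 89 of 166 and are in capitals below, at chr15:77924651-77924665 on the minus strand of GRCm38.
Txn2: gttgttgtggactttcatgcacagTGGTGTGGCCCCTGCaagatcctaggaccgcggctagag

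Txn2 (ENSMUSG00000005354.15, chromosome 15 from 77915047 to 77929006) had 14568, 13885, 15051 and 14180 normalized counts in WT against 10983, 14543, 15311 and 12585 in DKO. The WT range lay inside the DKO range, with DKO replicates 1 and 4 below it and replicate 3 above it. The log2 fold change was -0.11 (SE 0.11).

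Prdx3, the matrix peroxiredoxin that Txn2 recharges, had 9408, 9184, 8269 and 8993 normalized counts in WT against 6622, 9406, 11334 and 8800 in DKO. DKO replicate 1 was below and DKO replicate 3 above every WT library, with the other two inside the WT range. The log2 fold change was 0.01 (SE 0.14), and the coefficient of variation was 5.50% in WT and 21.5% in DKO. Prdx3 (ENSMUSG00000024997.7) lies on the minus strand of chromosome 19 from 60864051 to 60874556.

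Sod2, the manganese superoxide dismutase that forms the hydrogen peroxide these enzymes then remove, had 8083, 6993, 7877 and 7567 normalized counts in WT against 5404, 8239, 8956 and 8261 in DKO. Here too DKO replicate 1 was the lowest and DKO replicate 3 the highest of the 8 libraries. The log2 fold change was 0.02 (SE 0.14). Sod2 (ENSMUSG00000006818.4) lies on the plus strand of chromosome 17 from 13006846 to 13040063.

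**Figure D1:**
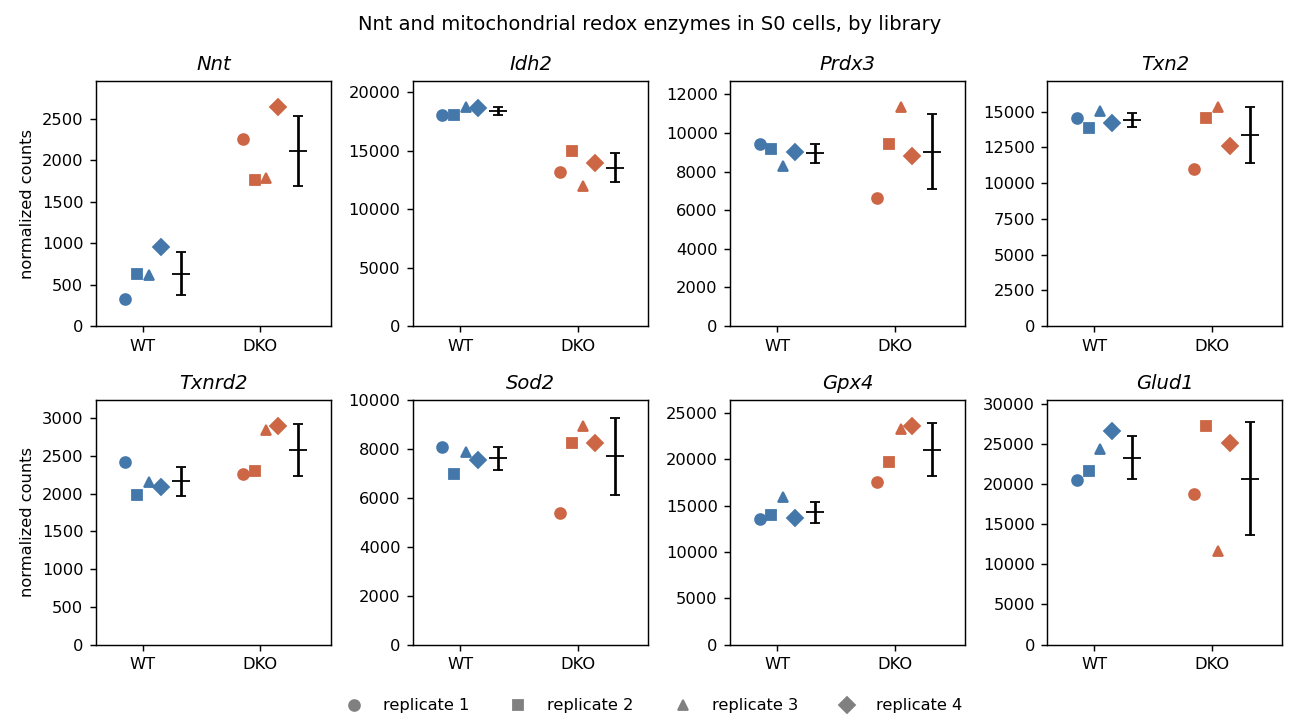
Normalized counts of the 8 members (vertical axes, each starting at 0) in the WT and DKO libraries, with a symbol for each replicate and the mean ± SD of 4 libraries beside them. The DKO libraries of Nnt (1763 to 2640) and Gpx4 sit above all WT libraries and those of Idh2 below them, while the other 5 genes overlap between the genotypes.

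Counted together, 2 of the 8 members had an edgeR adjusted p under 0.05 and higher levels in DKO (Nnt and Gpx4), where 10.7% of all genes tested did. In the other direction 1 of 8 had one (Idh2), where 10.8% of all genes did. With a log2 fold change over 1 also required, 1 of 8 remained higher (Nnt), beside 6.19% of all genes, and 0 of 8 was lower, beside 2.43%. Each DKO library lay above each WT library in 2 of 8 members and in 13.5% of all genes, and below in 1 of 8 members and in 14.6% of all genes. The median log2 fold change was 0.01 over the members and 0.03 over all genes tested. Because the contrast served to choose the members, nothing is read from these shares.

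Nnt, Idh2 and Gpx4 kept their direction in all 17 other analyses of the counts, with log2 fold changes from 1.52 to 2.001 for Nnt, from -0.50 to -0.33 for Idh2 and from 0.50 to 0.66 for Gpx4. Txnrd2 (0.19 to 0.36) and Txn2 (-0.18 to -0.0044) also had the same sign in all 17, although their libraries overlapped. The sign of the difference changed for Prdx3 in 5, for Sod2 in 6 and for Glud1 in 2 of the 17, and no direction is given for these genes. All 17 reuse the same libraries, so they show only how far the values depend on the processing and on the libraries kept.

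The enzymes differed widely in level. Divided by the length of the gene's exons, Gpx4 was the most abundant member in WT at 8298 ± 657 normalized counts per kb, followed by Idh2 at 7099 ± 142. Prdx3 (6065 ± 334) and Glud1 (5545 ± 648) came next, and their WT libraries overlapped. Txn2 followed at 3427 ± 120, and Sod2 (762 ± 47.5), Txnrd2 (491 ± 42.6) and Nnt (89.7 ± 36.9) were much lower, each with its WT libraries apart from those of the next gene. Nnt was therefore the least abundant member per kb in WT.

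In DKO, Gpx4 was again first at 12205 ± 1679 normalized counts per kb. Prdx3 (6117 ± 1313), Idh2 (5230.5 ± 482), Glud1 (4923 ± 1680) and Txn2 (3174 ± 464) followed, and among these only Txn2 was free of overlap with the next gene down, Sod2, while each of the others overlapped its lower neighbour. Sod2 (771 ± 158) overlapped Txnrd2 (586 ± 77.7). Nnt remained last at 300.3 ± 59.4 normalized counts per kb, yet it moved from above 44.5% of all genes tested in WT to above 65.8% in DKO.

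Prdx3, Txn2 and Sod2 shared an order of the DKO libraries, with replicate 1 lowest and replicate 3 highest in all 3 genes. The same held in part for 18 genes of mitochondrial import and membranes, such as the Vdac channels and the Tomm and Timm subunits, which stand here for mitochondrial messages in general. All 18 of 18 were lowest in DKO replicate 1 among the DKO libraries, compared with 29.8% of all genes tested, and 10 of 18 were highest in DKO replicate 3, compared with 26.4%. DKO replicate 1 was also the DKO library with the most mesenchymal RNA, with 6 of 6 mesenchymal markers at their highest among DKO. The part of that RNA in the lower mitochondrial messages was not tested.

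When each member was set against the median of the 18 genes in the same library, on the log2 scale and relative to the WT mean, Nnt ran from -0.94 to 0.73 in WT and from 1.44 to 2.21 in DKO. Gpx4 ran from -0.14 to 0.15 in WT and from 0.38 to 0.64 in DKO, and Idh2 from -0.09 to 0.06 in WT and from -0.78 to -0.20 in DKO. These 3 members thus stayed apart between the genotypes on that scale as well. Prdx3 (-0.16 to 0.18 in DKO) and Sod2 (-0.22 to 0.07 in DKO) still overlapped WT. Txn2 ran from -0.05 to 0.05 in WT and from -0.28 to -0.08 in DKO, so that on this scale its DKO libraries lay below all WT libraries.

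Glud1 followed another library. It was lowest in DKO replicate 3, at -0.997 on the log2 scale relative to the WT mean, and it was there -1.16 against the import and membrane genes. In that library 11 of 11 hepatoblast markers were at their lowest among DKO, and their median was -2.31, against -0.72, -0.20 and -0.33 in DKO replicates 1, 2 and 4. In those 3 replicates Glud1 was at -0.31, 0.23 and 0.12. Glutamate dehydrogenase is abundant in liver parenchyma, and the part of hepatoblast RNA in the Glud1 level was not tested. Other genes were also lowest in DKO replicate 3 among the DKO libraries, such as Idh2, Idh1, catalase, Msra and Hmgcs1. These are examples, and the share of all genes tested that was lowest in that library was not counted. The part of hepatoblast RNA in the levels of these genes was not tested either. With DKO replicate 3 left out, Idh2 had a log2 fold change of -0.38.

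**Figure D2:**
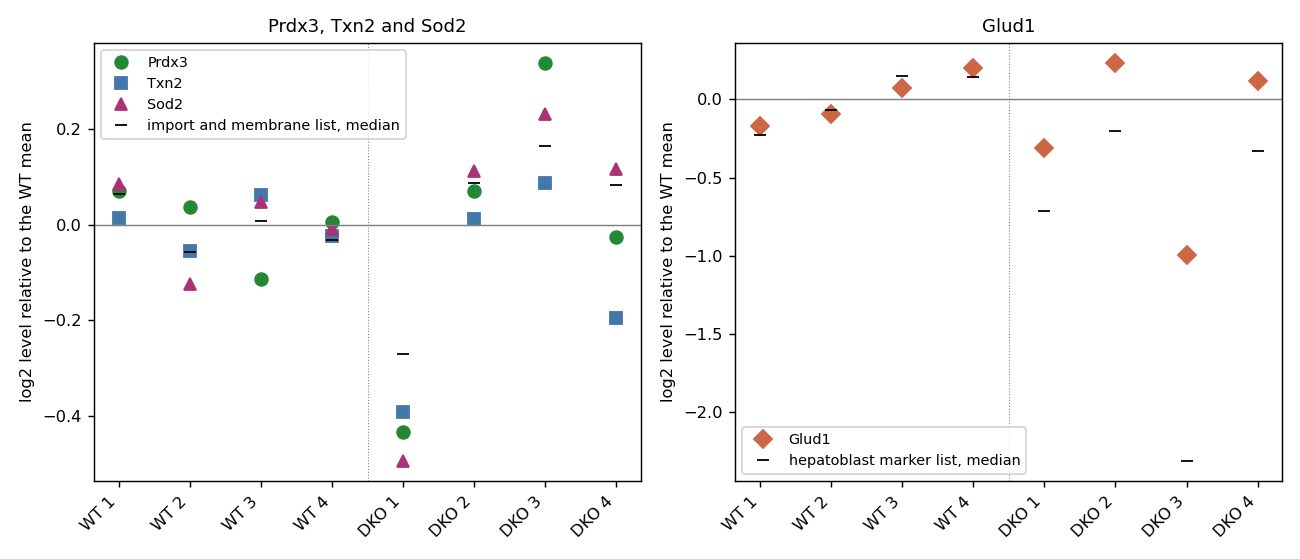
Level of Prdx3, Txn2 and Sod2 (left) and Glud1 (right) in each library on the log2 scale relative to the WT mean, with dashes for the median of 18 import and membrane genes (left) or 11 hepatoblast markers (right). In DKO replicate 1 the left genes drop together with the list, and in DKO replicate 3 Glud1 reaches -0.997 where the hepatoblast median reaches -2.31.

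The other genes of the pathway were taken from lists of their known roles. Of 41 genes in 4 lists, called the mitochondrial lists here, 40 could be tested (Me3 could not). Not all of their products are confined to mitochondria, among them those that make selenoproteins. Of the 40, each DKO library lay above each WT library in 4 (13.5% of all genes tested) and below in 10 (14.6%). Over the 4 lists, 3 genes rose and 6 fell, 31 did not pass the test, and the median log2 fold change was 0.03, as for all genes. Among all genes tested, 10.7% rose and 10.8% fell. Without DKO replicate 1 the counts were 6 higher and 6 lower, and without both DKO replicates 1 and 3 they were 8 higher and 5 lower.

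Among 7 genes listed under mitochondrial NADPH supply, 1 rose and 0 fell. The list groups genes by role, and which cofactor each product uses was not measured. Mthfd2, the folate enzyme that oxidizes methylenetetrahydrofolate in the matrix, had 4970, 4581, 5084 and 4981 normalized counts in WT against 7850, 12464, 9832 and 14965 in DKO. Its libraries did not overlap, and the log2 fold change was 1.20 (SE 0.17, edgeR adjusted p = 0.00336). With a log2 fold change past 1 and an adjusted p under 0.05, 1 of the 40 genes was higher (Mthfd2) and 0 lower. At these thresholds 6.19% of all genes tested were higher and 2.43% lower. Aldh1l2, the matrix formyltetrahydrofolate dehydrogenase, was named after its values were seen, as were Mthfd1l and Me2 of the same list. Normalized counts of Aldh1l2 were 0, 21.5, 16.5 and 0 in WT and 107, 54.6, 134 and 126 in DKO (edgeR adjusted p = 0.0528). Mthfd1l stood at -0.32 (edgeR adjusted p = 0.0931), with each DKO library below each WT library. Me2 stood at -0.34 with overlapping libraries (edgeR adjusted p = 0.184). Of the 7 genes, 5 had a positive log2 fold change.

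Of the 12 neighbours of glutamate and isocitrate in the citric acid cycle, 0 rose and 3 fell, and the median log2 fold change was -0.11. Ogdh, the first subunit of 2-oxoglutarate dehydrogenase, fell by 0.84 on the log2 scale (SE 0.12, edgeR adjusted p = 0.00336), with 8841 to 10463 normalized counts in WT libraries and 4330 to 6362 in DKO libraries. Got2, the mitochondrial aspartate aminotransferase, fell by 0.65 (SE 0.09, edgeR adjusted p = 0.00347). Cs and the 3 tested subunits of the NAD-linked isocitrate dehydrogenase (Idh3a, Idh3b and Idh3g) did not pass the test. For Idh3a (-0.33, edgeR adjusted p = 0.0652) each DKO library still lay below each WT library, as for Dld (-0.34, edgeR adjusted p = 0.052). That held for 5 of the 12 genes (14.6% of all genes tested), and the reverse for 0 of 12 (13.5%).

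In the list of 15 thiol and peroxide genes, 2 rose and 2 fell. Glrx5, a glutaredoxin that serves iron-sulfur cluster assembly, rose by a log2 fold change of 0.68 (SE 0.12, edgeR adjusted p = 0.0065). Glrx2, the matrix dithiol glutaredoxin, rose by 0.31 (SE 0.07, edgeR adjusted p = 0.018), a call lost in 4 of 17 analyses, those without WT replicate 1, 2 or 4 and with the replicate block (highest adjusted p = 0.0615). Ethe1, the persulfide dioxygenase, fell by 0.76 (SE 0.12, edgeR adjusted p = 0.0049). Msra, which repairs oxidized methionine, fell by 0.86 (SE 0.20, edgeR adjusted p = 0.0174), a call lost in the 3 of 17 analyses without WT replicate 1, 2 or 4 (highest adjusted p = 0.0587).

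Of 6 genes that make selenoproteins, 0 rose and 1 fell. Eefsec, the elongation factor that brings selenocysteine to the UGA codons printed above, fell by 0.36 on the log2 scale (SE 0.10, edgeR adjusted p = 0.0325), and this call was lost in 7 of 17 analyses, among them those without any 1 of the WT replicates or without DKO replicate 4 (highest adjusted p = 0.0883). Secisbp2, Sephs2, Sepsecs, Pstk and Trnau1ap did not pass the test.

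**Figure D3:**
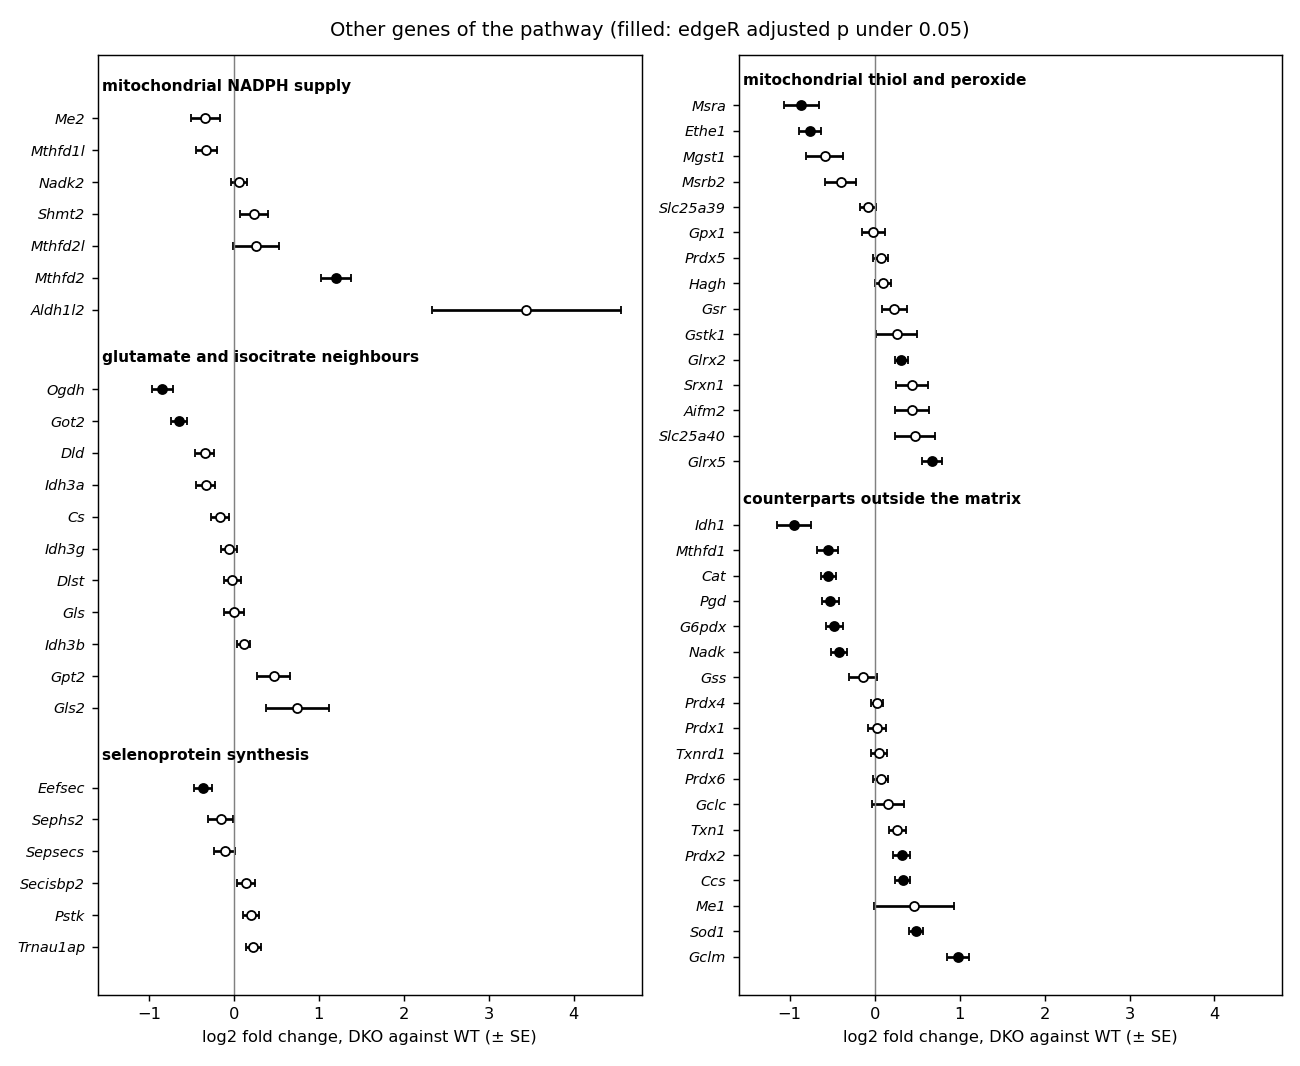
Log2 fold change of DKO against WT (horizontal axis, bars ± SE, 4 libraries a group) for genes of the 4 mitochondrial lists and for their counterparts outside the matrix, with filled points where the edgeR adjusted p is under 0.05. Mthfd2 at 1.20 is the only filled point beyond 1 in the mitochondrial lists, where Ogdh, Msra and Ethe1 are the lowest filled points. Of all genes tested, 6.19% were higher by both thresholds.

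Counterparts of these enzymes in the cytosol, peroxisome and secretory pathway changed in both directions, with 4 of 18 higher (10.7% of all genes tested) and 6 of 18 lower (10.8% of all genes tested) and a median log2 fold change of 0.04. Gclm, the modifier subunit of the enzyme that begins glutathione synthesis, rose by a log2 fold change of 0.98 (SE 0.13, edgeR adjusted p = 0.00255), with 3248 to 4050 normalized counts in WT libraries and 5900 to 8858 in DKO libraries. Sod1, the copper-zinc superoxide dismutase, rose by 0.49 (SE 0.09, edgeR adjusted p = 0.00653), and Ccs, the copper chaperone of Sod1, rose by 0.33 (SE 0.08, edgeR adjusted p = 0.0235). Prdx2, a cytosolic peroxiredoxin abundant in red cells, rose by 0.32 (SE 0.10, edgeR adjusted p = 0.0451) with overlapping libraries. The call of Ccs was lost in 6 of 17 analyses, among them those without WT replicate 1, 2 or 4 or DKO replicate 4 (highest adjusted p = 0.0818). That of Prdx2 was lost in 10, among them those without any 1 library other than DKO replicate 2 (highest adjusted p = 0.166). Without both DKO replicates 1 and 3, the counts were again 4 higher and 6 lower.

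Several cytosolic sources of NADPH were among the 6 genes that fell, while Me1, the cytosolic malic enzyme, stood at 0.46 on the log2 scale (SE 0.47, edgeR adjusted p = 0.519) with overlapping libraries. Idh1, the counterpart of Idh2 in the cytosol and peroxisome, fell by 0.95 on the log2 scale (SE 0.20, edgeR adjusted p = 0.0119), and by 0.77 without DKO replicate 3, where it was lowest at 1834 normalized counts. Pgd, of the pentose phosphate pathway, fell by 0.52 (SE 0.10, edgeR adjusted p = 0.00854), and G6pdx and Mthfd1, named after their values were seen, fell by 0.47 and 0.56 (edgeR adjusted p = 0.0133 and 0.013). Nadk, which makes NADP in the cytosol, fell by 0.42 (SE 0.09, edgeR adjusted p = 0.0122), and catalase (Cat), which clears peroxisomal hydrogen peroxide, fell by 0.54 (SE 0.09, edgeR adjusted p = 0.00454). G6pdx is on the X chromosome. DKO replicate 3, the DKO library with Ddx3y above Xist, had 2995 normalized counts of G6pdx, below the WT range of 3499 to 3995. The part of embryo sex in the G6pdx difference was not tested, and that library alone cannot test it.

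The import and membrane genes themselves showed 0 of 18 higher and 3 of 18 lower, where 10.7% of all genes tested rose and 10.8% fell. Immt, which shapes the cristae, fell by 0.49 on the log2 scale (SE 0.08, edgeR adjusted p = 0.00449), and Vdac1, a channel of the outer membrane, fell by 0.37 (SE 0.08, edgeR adjusted p = 0.0121). Opa1, the inner membrane fusion protein, fell by 0.33 (SE 0.10, edgeR adjusted p = 0.0366), a call lost in 9 of 17 analyses, among them those without any 1 library other than WT replicate 3 and DKO replicate 4 (highest adjusted p = 0.108). The call of Vdac1 was lost only with the replicate block (adjusted p = 0.0507). The median log2 fold change of the 18 was 0.05.

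Genes near Nnt on chromosome 13 were examined because Nnt differs between substrains. Of 55 genes of the count table within 1 Mb of Nnt, 14 could be tested and 1 passed, where 10.7% of all genes rose and 10.8% fell. That gene was Hmgcs1, the cytosolic HMG-CoA synthase of cholesterol synthesis, 281 kb away, which fell by 0.998 on the log2 scale (SE 0.24, edgeR adjusted p = 0.0195). Its normalized counts were 8637, 8973, 8810 and 11489 in WT and 5296, 6606, 2577 and 4496 in DKO, without overlap. Its call was lost without WT replicate 4 (adjusted p = 0.0643) and without DKO replicate 4 (adjusted p = 0.0507). None of the 14 rose with an adjusted p under 0.05, and Fgf10, a growth factor gene whose log2 fold change was the largest of the 14, stood at 1.77 (SE 0.62, edgeR adjusted p = 0.0694) at no more than 340 normalized counts in any library. With DESeq2, with at least 10 counts in every library, or without DKO replicates 1 or 3 or both, 2 of the neighbours passed.

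**Figure D4:**
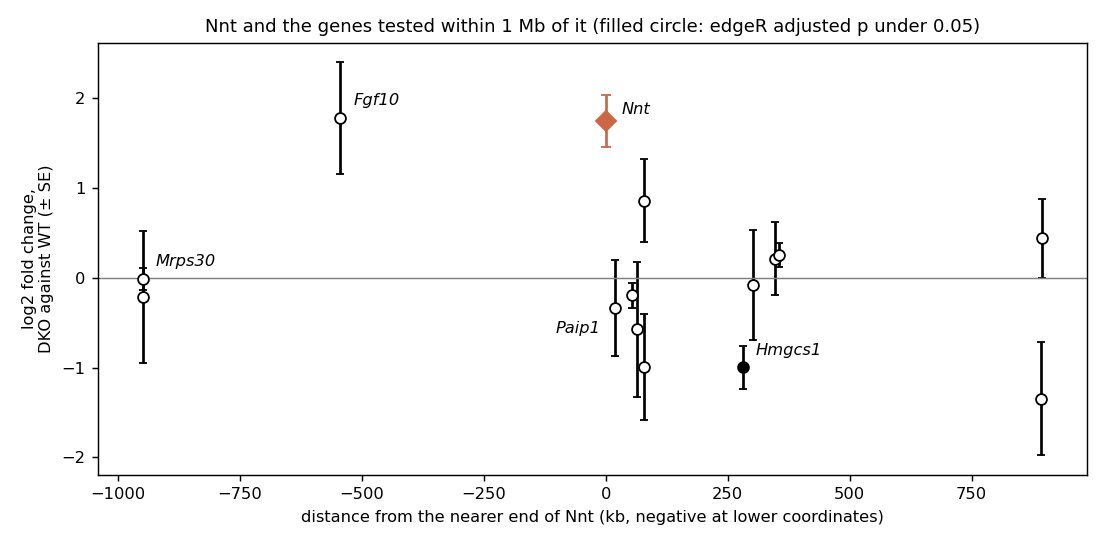
Log2 fold change of DKO against WT (vertical axis, bars ± SE, 4 libraries a group) for Nnt (diamond) and the 14 genes tested within 1 Mb, by distance from the nearer end of Nnt in kb. Nnt at 1.74 stands above its nearest neighbours, and Hmgcs1 at -0.998 is the one filled circle, with an adjusted p under 0.05.

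The 5 genes whose libraries followed those of Nnt most closely were sought among 17248 genes, by the root mean square difference of log2 levels over the 8 libraries, each profile centred on its own WT mean. Bcat1, the cytosolic branched-chain aminotransferase, was closest at 0.21, with 106, 191, 165 and 209.8 normalized counts in WT against 689, 625, 479 and 715 in DKO. Like Nnt, it was lowest in WT replicate 1 and highest in WT replicate 4, and its highest DKO library was replicate 4. The processed pseudogene Gm13241 (0.23) followed at a mean of 6.60 normalized counts in WT, then Pltp, the phospholipid transfer protein (0.29), Klf4, a transcription factor (0.29), and the histone gene Hist1h2bn (0.33). Counts of pseudogenes and of histone genes, which have near-identical copies, are less certain. Among the members Gpx4 was nearest to Nnt at 1.002, with 1844 genes closer, and Idh2 was farthest at 1.66.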

How the data were processed

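S0 cells were sorted from WT and DKO fetal livers at E12.5, and libraries for RNAseq were prepared by a template switching method for small amounts of RNA. Per the paper's methods and the submitters' processing notes, the authors trimmed reads with fastp 0.21.0, mapped them to mm10 (GRCm38) with HISAT2 2.2.1, dropped alignments with a quality below 20 and deposited whole-number counts per gene from StringTie 1.3.3b and its prepDE script, not normalized and with a column for each library. StringTie works counts back from coverage, so totals can differ from read numbers.

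Groups came from the sample labels. Of 52636 identifiers, 52489 matched GENCODE vM21 without the version, which gave symbols, coordinates and union exon lengths. The paper names another GENCODE release for the counting, so lengths behind the levels per kb can differ from those of the models counted. The erythroid marker Ahsp was not found by symbol. In R 4.3.3, edgeR 4.0.16 (limma 3.58.1) was used with filterByExpr, TMM scaling, the robust quasi-likelihood test without covariates and Benjamini-Hochberg adjustment over 17378 genes. "Rose" and "fell" mean an adjusted p under 0.05, and the count with a log2 fold change past 1 is given where stated. Log2 levels per library used a pseudocount of 1 normalized count, and profiles used log2 CPM computed from the counts (prior count 2) for genes with at least 10 normalized counts on average.

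The members, the 6 pathway lists and the 7 marker lists were chosen with earlier results of these data known. Genes named are the members, the 2 targeted genes, up to 4 genes per pathway list and direction with the smallest p at an adjusted p under 0.05, neighbours of Nnt at that threshold, and the 5 genes closest to Nnt in profile; any other gene with values was named after they were seen. A few genes counted in the lists are not reported here by name. The test was repeated with DESeq2 1.42.0, with upper-quartile scaling, DESeq2 size factors or total counts in place of TMM, without a count filter, with a minimum of 10 counts in all libraries, on protein-coding genes, with a replicate block and with each library left out. Leaving out DKO replicates 1 and 3 together was chosen after seeing the data. Simulated counts were used to test these steps. No library was a copy of another of its genotype (chi-square per gene of at least 18.27), and pairs across genotypes were not compared. Counting error is small at these depths, and the spread between 4 libraries limits the precision.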

Additional observations from a re-analysis of the deposited data

Results flagged for a closer look

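In 58 groups of 4 libraries examined for a library far from the others, of which chance flags about 1 in 20, 2 stood out. Prdx2 had 20672 normalized counts in DKO replicate 2, while the other DKO libraries lay between 25940 and 26788, and this library was the one that overlapped WT. Hmgcs1, near Nnt, had 11489 normalized counts in WT replicate 4, while the other WT libraries lay between 8637 and 8973. No library of a member stood out by this measure.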

How the results depend on the processing

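Members with an adjusted p under 0.05 numbered 3 under 16 of the 17 alternatives and 4 with upper-quartile scaling, which adds Txnrd2. The counterparts outside the matrix that fell numbered 6 under all 17. Genes past a log2 fold change of 1 numbered 1076 higher, 1651 with DESeq2, 613 with the replicate block and 566 to 1148 with 1 library left out, and 423 lower, 243 to 521 with 1 left out (lowest without WT replicate 1, 2 or 4). Of the mitochondrial lists, 3 rose, 5 with upper-quartile scaling, 8 without DKO replicates 1 and 3, and 2 to 6 with 1 library left out (6 without DKO replicate 1), and 6 fell, 3 to 8 with 1 left out (3 without WT replicate 1, 2 or 4). Counterparts that rose numbered 4, 2 with no count filter or the replicate block, and 2 to 4 with 1 left out (2 without WT replicate 1, 2 or 4 or DKO replicate 4). Neighbours of Nnt that passed numbered 1, 2 with DESeq2, with at least 10 counts in every library or without DKO replicates 1 and 3, and 0 to 2 with 1 left out (0 without WT replicate 4 or DKO replicate 4). Same-numbered libraries did not deviate together (correlations -0.10, 0.05, -0.03 and -0.01). Such correlations cannot show whether libraries of the same number share a batch, and the labels do not say. Replicate numbers are those of the sample titles, and the DKO library names do not all carry the same numbers. The replicate block therefore pairs libraries by title only. Upper-quartile scaling moved the median log2 fold change of all genes from 0.03 to 0.14, the split of all calls from 1867 higher and 1878 lower to 2492 and 1242, and that of the mitochondrial lists from 3 and 6 to 5 and 4. The causes were not tested.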

Other observations

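Paip1, which encodes a binding partner of poly(A)-binding protein and is the tested gene nearest to Nnt, 19.6 kb away, was chosen after its values were seen. Its normalized counts were 3665, 3261, 1073 and 3946 in WT and 3671, 1052, 912 and 3814 in DKO. WT replicate 3 and DKO replicates 2 and 3 thus formed a low level, and the other 5 libraries a high one, across the genotypes. Nnt was at 620 in WT replicate 3, inside the range of the other WT libraries, and at 1763 and 1792 in DKO replicates 2 and 3, its lowest DKO libraries.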
